A study of Paraphaeosphaeria sporulosa with 23 samples.

Results

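The genes described here changed with culture age in untreated cultures of the filamentous fungus Paraphaeosphaeria sporulosa while their mean levels lay close together with and without selenite on both sampled days. They were chosen from the deposited table of CPM, reads per gene normalised to library size, each library divided by its median ratio to the genes' geometric means, which is called scaled CPM below. A gene was a member when its log2(group mean + 0.5) in controls differed by 1 or more between day 0 and day 6, when the same quantity differed by at most 0.6 between selenite and control on day 1 and again on day 6, and when its mean over the 14 controls was at least 1 scaled CPM. There were 189 members among 14844 genes with a RefSeq locus tag (15164 genes in the table), of which 122 were higher and 67 lower at control day 6 than at control day 0. Of the 10744 genes with a control mean of at least 1, 2340 changed by 1 or more with age. The members were 8.08% of those, and the other 2151 lay beyond 0.6 for selenite on at least 1 day. Among the 8404 genes with an age change under 1, 1789 (21.3%) kept both selenite differences within 0.6. All these values chose the members and are descriptions.

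As a still fungal culture ages, nutrients are drawn down and hyphae of different ages come to share the mat, and in many ascomycetes transcripts of growth give way to those of nutrient recycling, secondary metabolism and asexual development. Selenite, a toxic oxyanion of selenium, reacts with cellular thiols, and many fungi reduce it to insoluble elemental selenium. Genes are given by locus tag, no product names were used here, and so no role is given to any member.

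Whole cultures of strain AP3s5-JAC2a were sampled for stranded mRNA sequencing. A preculture of 14 days in liquid AY medium, which is based on yeast extract, was blended and used to start flasks that then grew for 18 days in the dark, unshaken. That point was day 0, with 3 untreated libraries. Selenium cultures then received 0.1 mM sodium selenite and gave 5 libraries at day 1 and 4 at day 6, and untreated controls gave 6 libraries at day 1 and 5 at day 6. Every group carried the same batch label and had the same growth history. Nothing in the labels ties a library to a flask of its own, and p-values here reflect the spread between libraries, which may be technical.

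Libraries held 23282564 to 32681888 reads assigned to genes, and the scaling factors ran from 0.511 to 1.61. Several control libraries stood apart from their groups on the second principal component of all genes tested, which took 15.4% of the variance. Control day 0 replicate 1 lay at -36.0 against 3.07 and 5.52 for the other day 0 libraries. Control day 6 replicates 1 and 3 lay at -91.6 and -86.2, and the other 3 between -44.7 and -29.4. Control day 1 replicate 1 lay at 13.3, and the other 5 between 56.1 and 81.3. Values without them are given beside the results that they moved most.

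The 122 members higher at day 6 held a larger share of all gene reads at control day 6 than at day 0, on the scale of unscaled library totals. They held 0.393%, 0.198% and 0.191% of the reads in the 3 day 0 libraries. At control day 1 they held 0.309% at the lowest, and 1.01% at the highest, in replicate 1. At control day 6 they held 0.976%, 0.563%, 0.982%, 0.587% and 0.689%. All 5 day 6 libraries lay above all 3 day 0 libraries, and replicate 1 was the only day 1 control above the lowest day 6 library. With selenite the share was 0.305 to 0.358% at day 1 and 0.567 to 0.756% at day 6, without overlap on this scale. The 67 members lower at day 6 held 1.22%, 1.66% and 1.64% of the reads at day 0 and 0.486 to 0.900% at control day 6, and already 0.537 to 0.851% at control day 1. In selenite they held 0.430 to 0.511% at day 1 and 0.622 to 0.831% at day 6. After division by the median-ratio factors, the scale of the rule, some of these orders changed. The first set then summed to 1754.8 to 2444.6 scaled CPM at day 0, 3466.7 to 10861.9 at control day 1 and 3936.9 to 6297.5 at control day 6. With selenite it summed to 5118.4 to 6063.7 at day 1 and 3879.2 to 5736.2 at day 6, which overlapped. The second set summed to 7576.1 to 15379.6 at day 0, 5775.8 to 9559.9 at control day 1 and 3098.9 to 6297.6 at control day 6. With selenite it summed to 7214.5 to 8807.8 at day 1 and 4716.3 to 5887.6 at day 6, the reverse of its order in read shares. The order of days 0 and 6 in controls was the same on both scales in each set, and the order of days 1 and 6 in selenite was not. The rule formed the sets by the difference between control days 0 and 6, so nothing is read from that order. These are whole cultures, so fewer cells of a kind and less RNA per cell cannot be told apart.

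**Figure D1:**
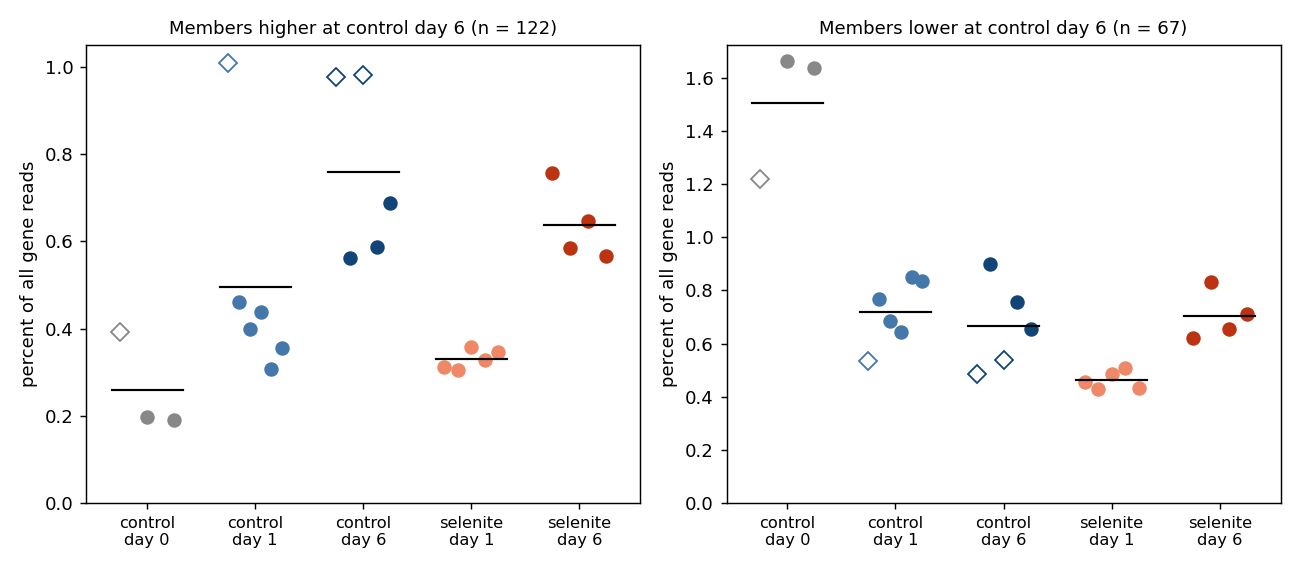
Share of all gene reads (percent, linear axis from 0) held by the 122 members higher and the 67 members lower at control day 6, by library and group. Points are libraries, open diamonds the 4 control libraries that stood apart, and bars group means; the shares are not divided by the median-ratio factors, and control day 1 replicate 1, at 1.01% on the left, stood with control day 6 replicates 1 and 3.

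Among the members higher at day 6, the difference of log2(group mean + 0.5) between control day 6 and day 0 had a median of 1.24 and ran from 1.00 to 2.58, with 32 members at 1.5 or more and 5 at 2 or more. The libraries of days 0 and 6 did not overlap for 82 of the 122 and for 44 of the 67 lower members. That was so for 24.8% of all 13676 genes tested, and the rule used this contrast, so nothing is read from the excess. In the fit over all genes, by limma on log2(scaled CPM + 0.5) with Benjamini-Hochberg adjustment and a call at adjusted p under 0.05, 76 of the 122 and 57 of the 67 were called between days 6 and 0, beside 20.9% of all genes. Over all genes 1449 were called higher and 1408 lower. Without day 0 replicate 2 the calls were 39 members higher and 41 lower, and 596 and 617 over all genes. Without day 0 replicate 3 they were 40 and 38, and 594 and 602 over all genes. Without day 6 replicates 1 and 3 together they were 45 and 40, and 789 and 674 over all genes. Library size alone called 102 members higher and 54 lower, and the share of all calls that were higher went from 50.7% to 73.4%. All 189 members passed the filter on low values. Leaving out day 0 replicate 1 kept the difference at 1 or more in 112 of 122 and 60 of 67, leaving out day 6 replicates 1 and 3 kept it in 69 and 49, and leaving out all 3 kept it in 89 and 54. The sign turned in none under these 3 settings.

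CC84DRAFT_456474 had the largest difference upward (scaffold NW_017253361.1, positions 1948708 to 1950192, plus strand). Its scaled CPM was 10.3, 14.1 and 11.04 in the day 0 controls. In day 1 controls it was 18.1 at the lowest, 27.6 at the median and 106 at the highest, the last in replicate 1. In day 6 controls it was 97.4, 38.1, 122, 44.7 and 63.2. Every day 6 library lay above every day 0 library, and the difference of L, the log2(group mean + 0.5), was 2.58. With selenite it was 48.6, 42.1, 45.8, 57.4 and 59.6 at day 1 and 121, 90.6, 101 and 41.9 at day 6, inside the range of the same-day controls on both days. At day 1 replicate 1 set the top of that range: the other 5 controls ran from 18.1 to 48.07, 3 of the selenite libraries lay above them, and the selenite difference of L was 0.27 with all libraries and 0.79 without replicate 1. Its level rose from control day 0 to day 1 by 1.52 (SE 0.41, adjusted p = 0.00675) and from day 1 to day 6 by 0.93 (SE 0.35, adjusted p = 0.0352) on the log2 scale in the limma fit, contrasts that share libraries with the one that chose it.

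CC84DRAFT_1160510 (scaffold NW_017253361.1, positions 486701 to 488108, minus strand) had a day 1 control mean that 1 library raised. Its day 0 controls held 21.4, 13.6 and 17.3 scaled CPM and its day 6 controls 102, 40.5, 128, 46.1 and 74.6. The 6 day 1 controls held 401, 76.5, 40.5, 44.6, 10.2 and 7.64, with replicate 1 far above the rest. The 5 selenite libraries of day 1 held 138, 159.5, 162, 133 and 108, all above the other 5 day 1 controls and below replicate 1. Its difference of L at day 1 was 0.53 with all libraries and 1.95 without control day 1 replicate 1, and the limma fit of log values gave 1.75 with all libraries. At day 6 selenite gave 112, 31.4, 51.4 and 36.7, overlapping the controls.

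CC84DRAFT_1169914 (scaffold NW_017253376.1, positions 231680 to 233166, plus strand) held 15.1, 22.5 and 19.3 at day 0 and 140.3, 54.4, 103, 41.7 and 59.6 at control day 6, without overlap. Its day 1 controls held 41.6 at the lowest, 64.7 at the median and 306 at the highest, so that all 6 exceeded day 0, and its difference of L from day 0 to day 6 was 2.04. CC84DRAFT_1104949 held 42.3, 30.2 and 30.9 at day 0 and 228, 96.3, 195, 53.004 and 65.2 at control day 6, again without overlap, with a difference of 1.87. Its day 1 controls ran from 8.45 to 633, both below day 0 and above day 6, and without replicate 1 its selenite difference of L at day 1 went from -0.13 to 1.22. CC84DRAFT_1214347 was at lower levels, with 3.5, 5.24 and 2.49 at day 0, 21.1, 9.56, 24.2, 6.89 and 12.7 at control day 6 and a difference of 1.86. Selenite at day 6 gave 3.61, 7.84, 20.8 and 18.8 for this gene, from the day 0 range into that of control day 6. Without day 0 replicate 1 and day 6 replicates 1 and 3 the differences of these 3 genes were 1.29, 1.21 and 1.23 in the same order.

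Per kilobase of exon, the highest control means among the members higher at day 6 were those of CC84DRAFT_1050439 (604 scaled CPM per kb), CC84DRAFT_1162968 (262) and CC84DRAFT_1159540 (191). CC84DRAFT_1050439 held 98.8, 83.2 and 72.9 at day 0 and 249, 127, 335, 181 and 225 in day 6 controls, without overlap, and its day 1 controls held 67.5 at the lowest, 218 at the median and 564 at the highest. CC84DRAFT_1162968 (scaffold NW_017253363.1, positions 199319 to 200734, minus strand) varied widely within groups. Its day 0 controls held 283, 31.1 and 26.9 scaled CPM, where replicate 1 was far above the other 2. Its day 6 controls held 479, 194, 484, 123 and 191, and its day 1 controls 29.9 at the lowest, 278 at the median and 2009 at the highest. The difference of L between days 6 and 0 was 1.37 and became 3.32 without day 0 replicate 1. Without control day 1 replicate 1 its selenite difference of L at day 1 went from -0.29 to 1.04. CC84DRAFT_1159540 was more even, with 44.5, 49.9 and 59.4 at day 0, 213 at the lowest, 276 at the median and 414 at the highest in day 1 controls and 61.3, 169, 69.6, 301 and 176 in day 6 controls. All 6 day 1 controls lay above day 0. In selenite it held 395, 367, 215, 204 and 249 at day 1 and 145, 158, 134 and 149 at day 6, overlapping the controls of each day.

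The 67 members lower at day 6 had differences of L with a median of -1.33, down to -3.34, and 23 of them at -1.5 or below. CC84DRAFT_1164813 had the largest (scaffold NW_017253365.1, positions 54752 to 56498, plus strand). Its scaled CPM was 244, 1354 and 1429 in the day 0 controls, 153 at the lowest, 195 at the median and 239.8 at the highest in the day 1 controls and 45.9, 160.1, 72.4, 137 and 82.2 in the day 6 controls. The day 0 libraries were above all other controls, with replicate 1 far below its 2 group mates, and the mean was 1009 ± 663 (SD, n = 3) at day 0 and 99.5 ± 47.4 (SD, n = 5) at day 6. In selenite the gene held 244, 221, 213, 277 and 190.2 at day 1 and 145, 69.8, 63.8 and 108 at day 6, close to the controls of each day, as the rule required of the means. The difference of L was -3.34, and -3.80 without day 0 replicate 1. In the fit the step from day 0 to day 1 was -1.99 (SE 0.41, adjusted p = 0.000623) and that from day 1 to day 6 was -1.11 (SE 0.35, adjusted p = 0.0117).

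CC84DRAFT_1101681 (scaffold NW_017253370.1, positions 965619 to 966561, minus strand) held 7.37, 10.997 and 8.15 scaled CPM at day 0 and 4.68 at the lowest, 7.53 at the median and 12.3 at the highest in day 1 controls, which overlapped. It held 1.33, 2.98, 2.26, 0.765 and 2.03 in day 6 controls, all below every day 0 and day 1 control. Selenite gave 14.7, 14.2, 1.95, 7.13 and 9.63 at day 1, with a single library at 1.95, and 1.8, 2.08, 0.576 and 0.861 at day 6. CC84DRAFT_1169282 (scaffold NW_017253373.1, positions 636202 to 638457, plus strand) fell in both steps, with 109, 127 and 164 at day 0, 41.02 at the lowest, 69.2 at the median and 105 at the highest in day 1 controls and 33.6, 46.2, 37.8, 31.8 and 26.6 in day 6 controls. Its day 6 selenite libraries held 68.6, 54.4, 40.2 and 40.3, and their L was 0.52 above that of the controls, near the limit of the rule.

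CC84DRAFT_414978 (scaffold NW_017253375.1, positions 420272 to 424053, plus strand) was not lower at day 1. It held 152, 517 and 460.3 scaled CPM at day 0, 284 at the lowest, 684 at the median and 1039.6 at the highest in day 1 controls and 67.1, 135, 61.2, 143 and 149 in day 6 controls. Selenite followed the same course, as the rule required of the means, with 1193, 1038, 492.8, 500.3 and 663 at day 1 and 62.4, 78.1, 143 and 137 at day 6. CC84DRAFT_19031 held 34.7, 112 and 117 at day 0 and 23.6, 22.5, 25.8, 27.05 and 20.1 at day 6, where the controls spanned little, and CC84DRAFT_1159385 held 22.4, 50.7 and 54.3 at day 0 and 5.15, 20.7, 7.93, 17.3 and 7.7 at day 6. In both, day 0 replicate 1 was the lowest of its group.

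**Figure D2:**
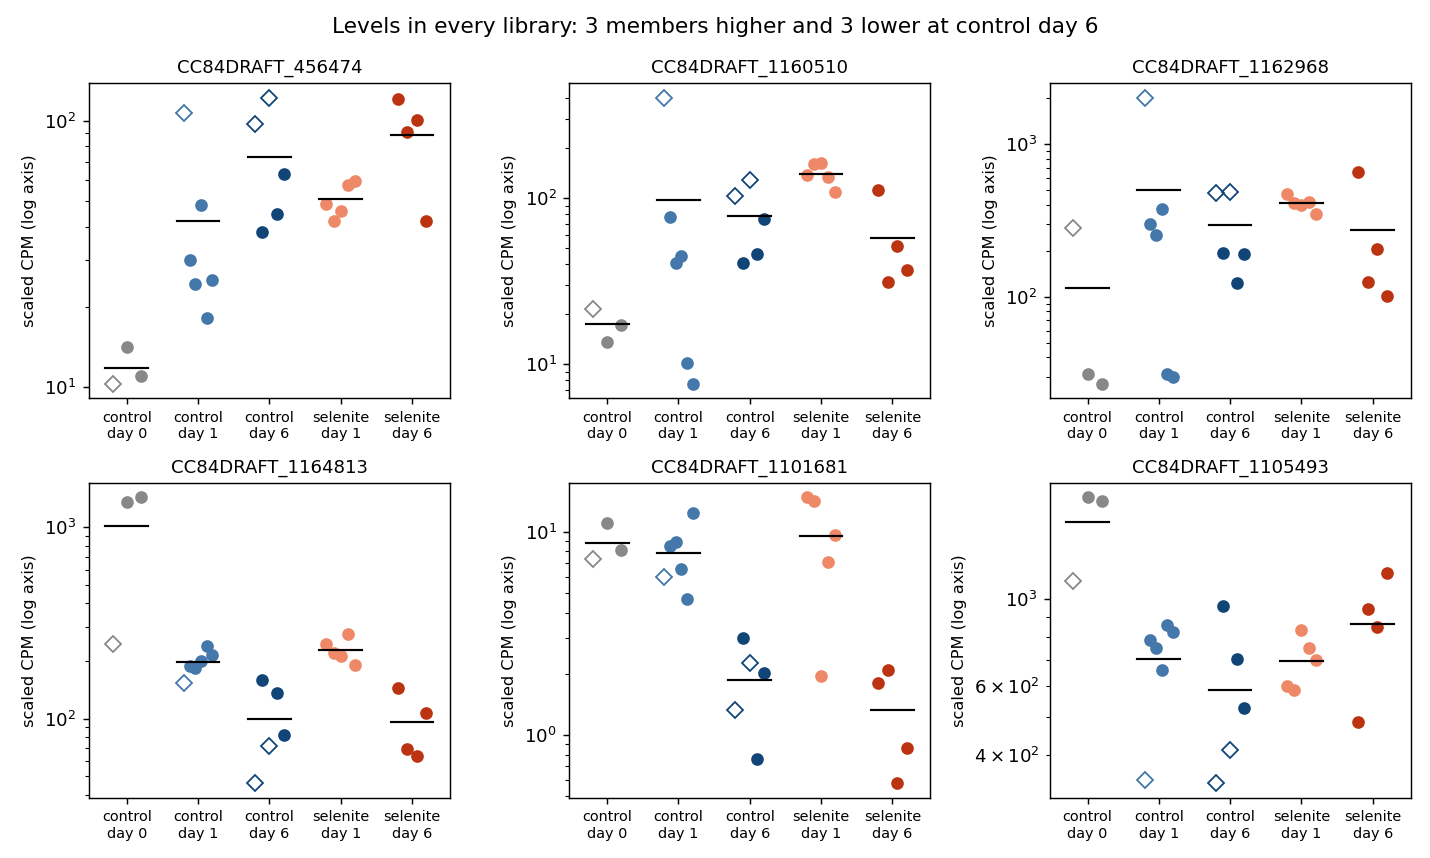
Scaled CPM (log axis) of 6 members in each of the 23 libraries, by group; the upper row holds members higher and the lower row members lower at control day 6. Points are libraries, open diamonds the 4 control libraries that stood apart, and black bars group means; for CC84DRAFT_1160510 the diamond at 401 lay above all 5 other day 1 controls, which reached 76.5.

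Among the lower members the highest control means per kilobase were those of CC84DRAFT_436570 (1358 scaled CPM per kb), CC84DRAFT_1105493 (514) and CC84DRAFT_1091851 (468). CC84DRAFT_436570 (scaffold NW_017253361.1, positions 696992 to 697483, plus strand) held 242, 569 and 605 scaled CPM at day 0, 601 at the lowest, 929 at the median and 1350.2 at the highest in day 1 controls and 68.2, 314, 81.3, 385 and 235 in day 6 controls. Day 6 replicates 1 and 3 were its lowest libraries, and the difference of L between days 6 and 0 was -1.12 with them and -0.60 without them. CC84DRAFT_1105493 (scaffold NW_017253376.1, positions 432052 to 433916, minus strand) had its change by day 1, with 1112, 1812 and 1778 at day 0, 345 at the lowest, 768 at the median and 858 at the highest in day 1 controls and 338, 956, 412, 702 and 525 in day 6 controls. CC84DRAFT_1091851 held 239.5, 502 and 543 at day 0 and 132, 240.4, 121, 187 and 163 in day 6 controls. Its day 1 controls held 209 at the lowest, 330.0 at the median and 406 at the highest, between the other days for the most part. The median control mean per kilobase was 7.78 for the members higher at day 6, 34.8 for those lower and 13.5 for all genes with a control mean of at least 1.

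When the change came was read from the controls of day 1. These entered the rule through the day 1 selenite difference and through the mean over the 14 controls. Of the members, 40 rose and 38 fell from control day 0 to day 1, beside 27.6% of all genes (14.2% rose and 13.4% fell), and each moved the way of its day 6 difference. From control day 1 to day 6, 45 rose and 37 fell, beside 43.7% of all genes (24.1% rose and 19.6% fell). Those 82 calls became 48 without control day 6 replicates 1 and 3. The libraries of control days 0 and 1 did not overlap for 74 members, beside 27.2% of all genes. Both contrasts share libraries with the one that chose the members, which favours that direction. Taken as steps, 26 of the 122 members higher at day 6 had only the step to day 1 called, and 39 only the later step. In 2 both steps were called the same way, and 12 passed the day 6 level at day 1 and came back. Neither step was called for 43. Of the 67 lower members, the same classes held 29, 20, 5, 4 and 9. These classes were not counted over all genes. From day 1 to day 6, 43.4% of the members were called, near the 43.7% of all genes. Nothing is therefore read from the class sizes, and a step that was not called was not thereby shown to be absent. Without control day 6 replicates 1 and 3, the 5 classes held 34, 20, 1, 8 and 59 of the higher members and 36, 12, 2, 3 and 12 of the lower, with 2 other lower members that had a step called against the day 6 direction. Without control day 1 replicate 1 they held 25, 51, 3, 11 and 32 of the higher members and 30, 22, 4, 3 and 6 of the lower, again with 2 others. The share of the L difference present at day 1 had a median of 0.708 in the members higher at day 6 and 0.783 in the lower ones. Without control day 1 replicate 1 those medians were 0.480 and 0.726.

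**Figure D3:**
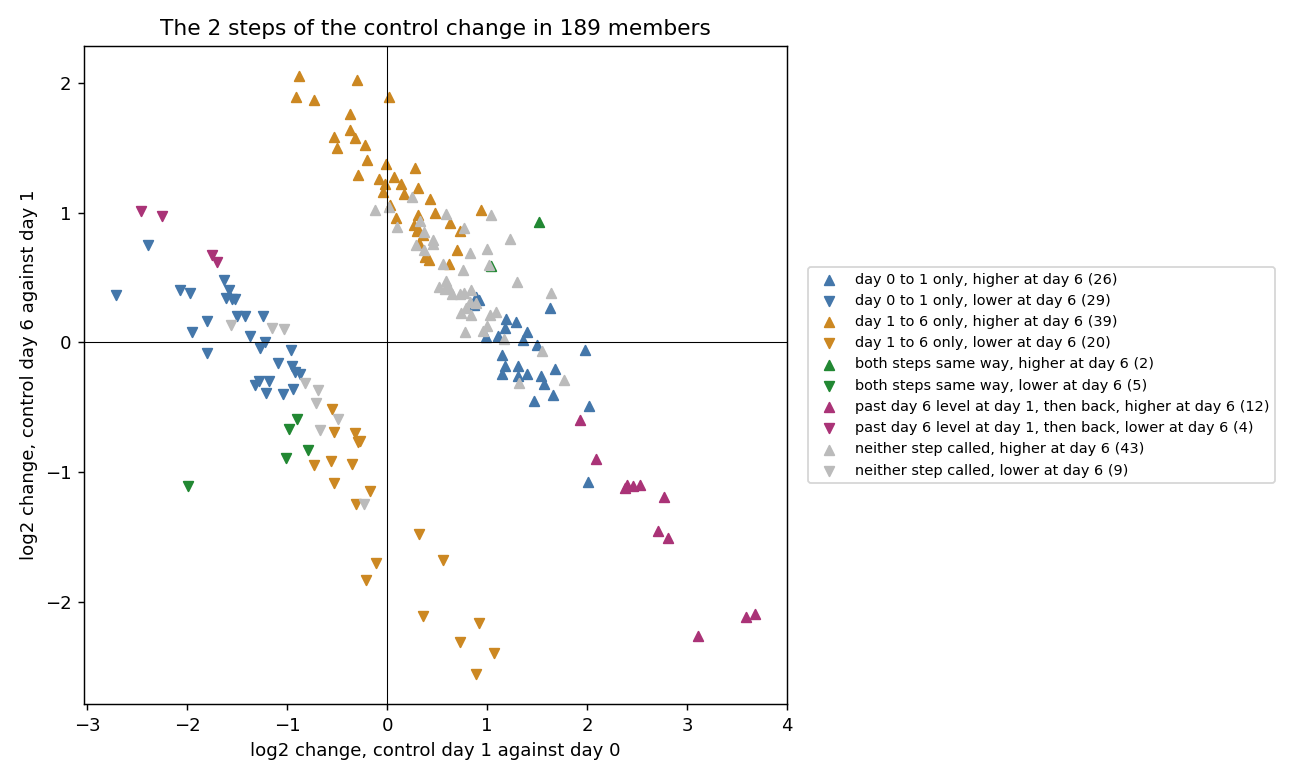
Log2 change of scaled CPM in the limma fit from control day 0 to day 1 (horizontal) and from day 1 to day 6 (vertical) for the 189 members. Triangles point up or down for members higher or lower at day 6, and colours mark which steps were called; 39 of the 122 higher members had only the later step called, and 29 of the 67 lower members only the earlier step, which became 20 and 36 without control day 6 replicates 1 and 3.

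Control day 1 was also set against the mean of the 8 controls of days 0 and 6. At equal spread this contrast is uncorrelated with control day 6 against day 0, but not with the selenite differences of the rule. It shares the day 1 and day 6 controls with those, so its calls are not free of the choice of members. It called 64 of 189 members (33.9%), beside 41.8% of all genes (19.2% higher and 22.6% lower). In the members higher at day 6, 22 were above and 17 below that mean at day 1, and in the lower members 11 were above and 14 below. The direction of these calls depended on the scaling. Over all genes 45.9% of the calls were higher at day 1, against 13.3% with library size alone and 50.9% with TMM factors. For day 1 against day 0 the 3 shares were 51.3%, 19.5% and 54.0%, and for day 6 against day 1 55.2%, 87.5% and 49.5%. Library size alone moved the median of all genes by -0.48, -0.37 and 0.56 in these contrasts, and the directions given here are relative to the median-ratio scale. Among the members, library size alone gave 26 rising and 58 falling to day 1, 105 rising and 15 falling from day 1 to day 6, and 19 above and 91 below at day 1 against the other days. With TMM factors these counts were 47 and 38, 38 and 41, and 40 and 29. On library size alone the rule picked 211 genes, of which 81 were among the 189.

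Among the members higher at day 6, the 3 with the smallest adjusted p in that contrast had day 1 controls above both other days. CC84DRAFT_1264775 (scaffold NW_017253376.1, positions 279660 to 280884, minus strand) held 17.7, 16.7 and 20.8 scaled CPM at day 0, 205 at the lowest, 235 at the median and 309.8 at the highest in day 1 controls and 33.4, 48.3, 47.5, 90.4 and 79.9 in day 6 controls. All 6 day 1 controls lay above all 8 others, and the difference was 2.69 (SE 0.26, adjusted p = 1.78e-08). Its selenite libraries held 349, 315, 152, 165 and 313 at day 1 and 81.1, 25.8, 29.6 and 22.1 at day 6. The high level was at day 1 in both arms. The rule held both selenite differences within 0.6, so this likeness was fixed by the choice. CC84DRAFT_1195287 (scaffold NW_017253363.1, positions 934647 to 936874, plus strand) held 101, 72.5 and 86.1 at day 0, 470.0 at the lowest, 598 at the median and 783 at the highest in day 1 controls and 173, 219.9, 208, 357 and 398 in day 6 controls. The difference was 1.79 (SE 0.18, adjusted p = 4.6e-08), with no overlap of day 1 with either other day. Selenite gave 709, 631, 564, 557 and 664 at day 1 and 208, 202, 334 and 182 at day 6. CC84DRAFT_175049 (scaffold NW_017253360.1, positions 4936280 to 4937322, plus strand) rose from 7.03, 11.996 and 7.52 at day 0 to 51.2 at the lowest, 81.8 at the median and 116 at the highest in day 1 controls. It was back at 9.51, 13.1, 10.3, 18.7 and 40.8 in day 6 controls, overlapping day 0. The last library, at 40.8, lay far above the others and raised the day 6 mean by which the gene counted as a member. Its difference at day 1 in the limma fit was 2.58 (SE 0.26, adjusted p = 4.84e-08).

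Among the lower members, CC84DRAFT_1211865 (scaffold NW_017253360.1, positions 3162163 to 3165429, minus strand) held 292, 506 and 476 scaled CPM at day 0, 359 at the lowest, 535 at the median and 604 at the highest in day 1 controls and 168, 199.5, 177, 186 and 192 in day 6 controls. The day 6 libraries spanned little and lay below all others, and day 1 was above the mean of the other days by 1.04 (SE 0.14, adjusted p = 2.21e-06). Its day 1 controls overlapped those of day 0. CC84DRAFT_1097862 (scaffold NW_017253367.1, positions 1739777 to 1740413, plus strand) held 15.6, 57.3 and 46.3 at day 0, 43.7 at the lowest, 61.2 at the median and 78.9 at the highest in day 1 controls and 7.29, 17.2, 10.2, 10.4 and 13.7 in day 6 controls, with a difference of 1.72 (SE 0.24, adjusted p = 3.19e-06). In selenite it held 83.2, 64.7, 43.2, 61.4 and 69.8 at day 1 and 8.16, 12.7, 10.2 and 8.99 at day 6, a course like that of the controls, as the rule required of the means. The day 1 controls of this gene also overlapped those of day 0. CC84DRAFT_1161368 (scaffold NW_017253361.1, positions 3285933 to 3287220, minus strand) went the other way, with 102, 103 and 105 at day 0, 12.998 at the lowest, 23.6 at the median and 26.1 at the highest in day 1 controls and 26.8, 76.8, 35.9, 61.8 and 29.2 in day 6 controls. All 6 day 1 controls lay below the other 8, and the day 1 level differed from the mean of the other days by -1.45 (SE 0.23, adjusted p = 1.89e-05). Its selenite libraries held 12.3, 12.01, 26.03, 22.1 and 17.1 at day 1 and 30.3, 46.2, 32.5 and 48.5 at day 6. These 6 calls kept their direction and their side of the threshold in all 216 combinations of gene and alternative that were run. The 6 genes were picked for the smallest adjusted p in this same contrast, which favours that outcome. Leaving out a selenite library cannot move the difference itself, so part of the 216 was fixed in advance.

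**Figure D4:**
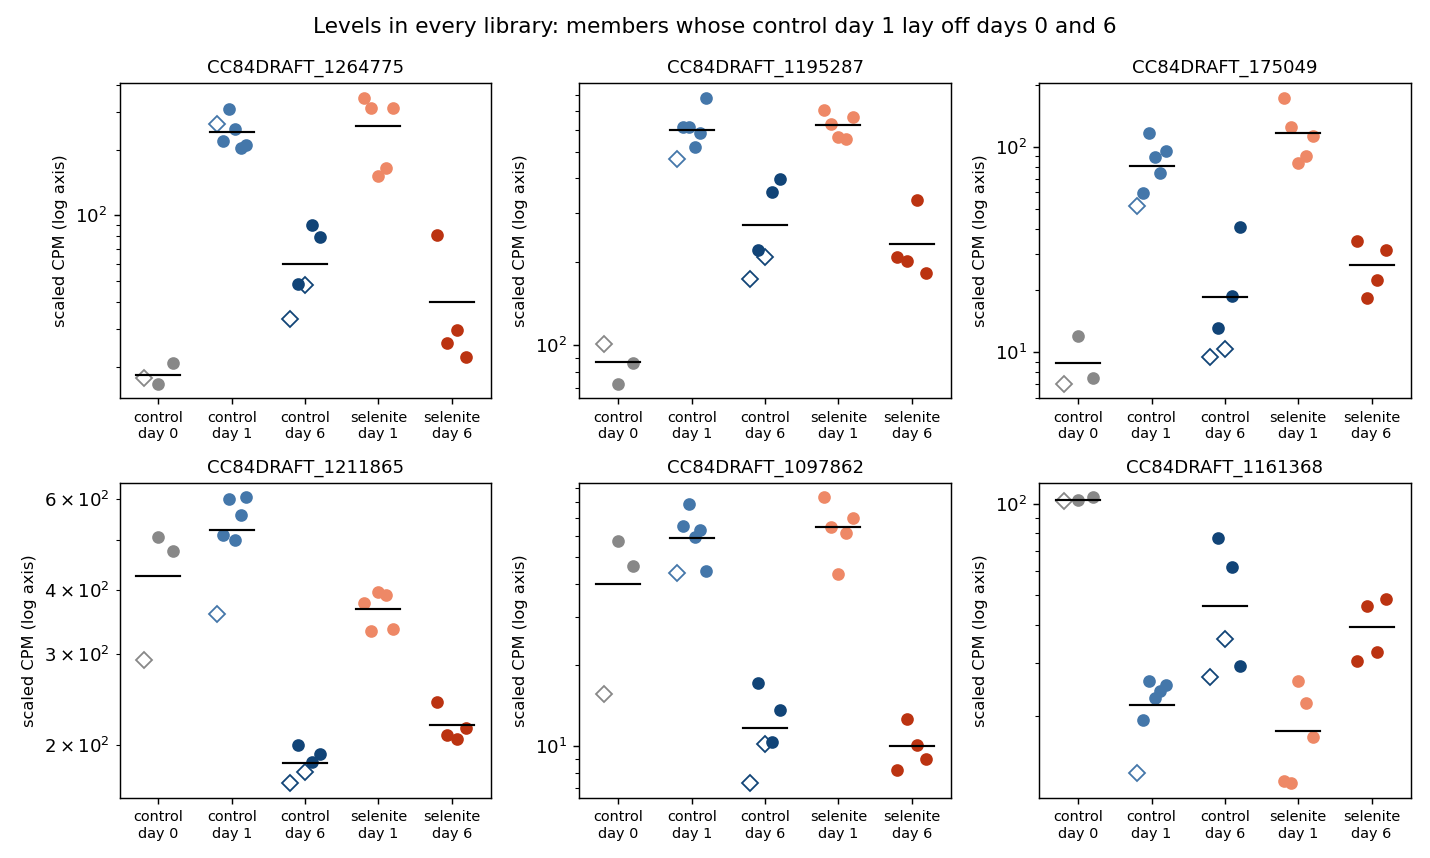
Scaled CPM (log axis) of the 3 members higher (upper row) and the 3 members lower (lower row) at control day 6 that had the smallest adjusted p for control day 1 against control days 0 and 6. Points are the 23 libraries, open diamonds the 4 control libraries that stood apart, and black bars group means; CC84DRAFT_1264775 lay at 205 to 309.8 in day 1 controls and at 90.4 or below in the controls of the other days.

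The label of indifference to selenite was checked against the fit of log values, as a description, since the rule used both contrasts. Selenite calls at day 1 covered 7 members higher and 9 lower, beside 61.9% of all genes (34.4% higher and 27.6% lower), and at day 6 they covered 5 and 4, beside 48% of all genes (25.4% and 22.6%). On neither day were 167 members called. Leaving out 1 library moved the 16 day 1 calls to 8 without control replicate 5 and to 10 without selenite replicate 5. Without control replicate 1 they rose to 33. It moved the 9 day 6 calls to 4 and 3 without control replicates 1 and 3, and to 4 and 2 without selenite replicates 2 and 4. Other omissions raised the day 6 calls, to 10 higher and 3 lower without control replicate 2, and to 5 and 7 without selenite replicate 1. Library size alone called 59 members at day 1, all lower with selenite, and TMM factors 2 higher and 21 lower. Over all genes 55.5% of the day 1 calls were higher with selenite, against 37.003% with library size alone and 49.2% with TMM factors, which moved the median of all genes by -0.42 and -0.14. At day 6 library size alone called 1 member higher and 8 lower, and TMM factors 8 and 1. A member that was not called was not thereby shown to be equal in both arms. The 95% interval of the selenite difference lay within 1 on the log2 scale for 104 members at day 1, for 87 at day 6 and for 73 on both days, and its median half-width was 0.641 and 0.710. The difference of L had a median of -0.02 at day 1 and -0.08 at day 6, and 54 members stayed within 0.3 on both days. The name therefore describes group means, and for 116 of the members the data allow a difference beyond 1 on at least 1 day.

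The 3 members called on both days, named after their values were seen, were all lower at control day 6. CC84DRAFT_1160538 held 372 at the lowest, 448 at the median and 519 at the highest scaled CPM in day 1 controls and 308, 359, 294, 251 and 342 in day 1 selenite libraries. At day 6 it held 158, 202, 198, 218 and 230.4 in controls and 174, 113, 138 and 121 with selenite, so that 1 selenite library was inside the control range. CC84DRAFT_1256659 held 43.5 at the lowest, 55.1 at the median and 79.9 at the highest in day 1 controls and 38.97, 30.2, 38.7, 39.5 and 43.2 with selenite. At day 6 it held 35.9, 32.3, 38.1, 28.6 and 29.8 in controls and 20.3, 31.1, 16.4 and 21.5 with selenite. Both were lower with selenite on both days. CC84DRAFT_1124204 held 87.1 at the lowest, 161 at the median and 191 at the highest in day 1 controls and 107, 91.8, 125, 129 and 102 with selenite. At day 6 it held 68.2, 105, 75.1, 113 and 93.1 in controls and 87.9, 149.9, 133 and 165 with selenite, so it was lower with selenite at day 1 and higher at day 6.

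Control day 1 replicate 1 bore on many of the day 1 means. It lay on the day 6 side of the other 5 day 1 controls in 98 of the 122 members higher at day 6 and in 54 of the 67 lower members, 80.4% in all. The share was 81.3% in the 2151 genes that changed with age and were no members, and 65.8% in all genes tested. Without it, the selenite difference of L at day 1 went beyond 0.6 in 29 members, 24 of them higher with selenite, and 23 of those 29 were members higher at day 6. The selenite calls at day 1 went from 16 to 33 members, 23 higher and 10 lower. Without it the rule picked 183 genes, of which 160 were among the 189.

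**Figure D5:**
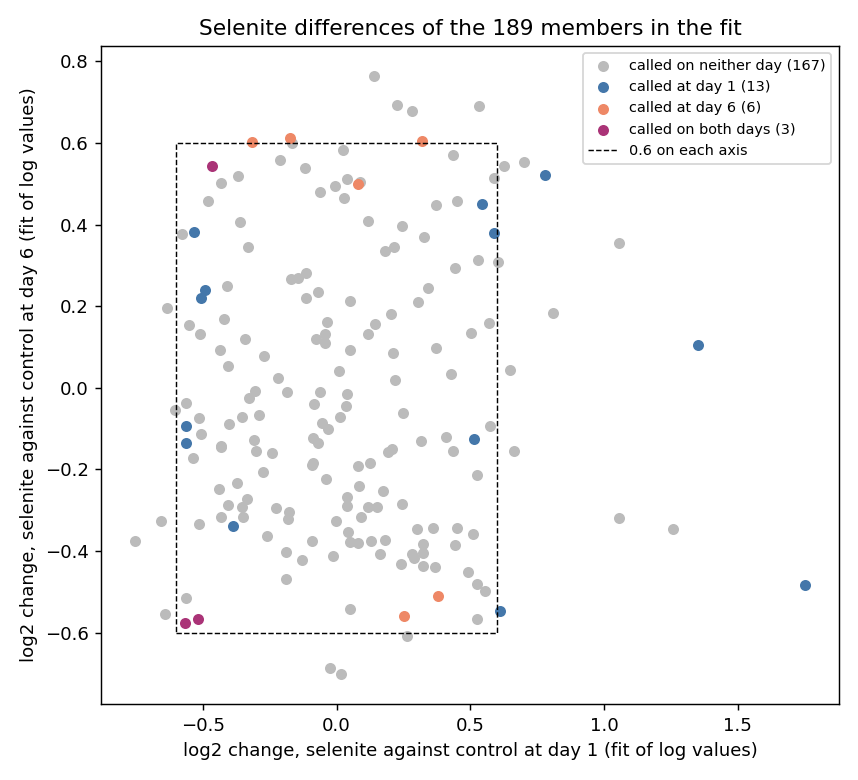
Log2 difference of scaled CPM between selenite and control at day 1 (horizontal) and day 6 (vertical) for the 189 members in the limma fit of log values; the dashed square marks 0.6 on each axis. Colours mark calls at adjusted p under 0.05; 167 members were called on neither day, and members outside the square lie there because the rule compared group means and the fit compares mean log values.

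Both authors' deposited tables of selenium against control list all 189 members. At an adjusted p under 0.05 the authors' deposited table for day 1 holds 19 of them, beside 60.8% of the genes it lists. The authors' deposited table for day 6 holds 4, beside 47.6%. The authors' deposited time-course table from maSigPro lists 18 members (9.52%), beside 42.4% of the genes with a control mean of at least 1. Of the 18, 9 are in cluster 6 of that authors' deposited table, all of them lower at day 6, and the R-squared values of the 18 ran from 0.702 to 0.874. These results come from the same libraries, and the rule had bounded the selenite differences they test, so the low counts follow from the choice. Nothing is read from them, and the share of cluster 6 over all listed genes was not computed.

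Between selenite day 1 and day 6, 37 members rose and 30 fell, beside 46.5% of all genes (21% rose and 25.6% fell). In the members higher at day 6, 29 rose and 10 fell, and in the lower members 8 rose and 20 fell. The rule holds each member's selenite step within 1.2 of its control step in L, so this likeness is fixed by the choice. Library size alone gave 132 members rising and 6 falling in this contrast, and TMM factors 45 and 28. Over all genes 45.0% of the calls rose, against 87.7% with library size alone, which moved the median of all genes by 0.94, and 53.1% with TMM factors, which moved it by 0.12. The difference between the selenite effect at day 6 and at day 1 was called for 9 members, beside 43% of all genes (17.9% higher and 25% lower), 6 of them with a higher value at day 6. Those 6 higher and 3 lower became 9 and 12 without control day 1 replicate 1, and 8 and 7 without selenite day 6 replicate 1. Library size alone gave 22 higher and 0 lower, and TMM factors 11 and 1, with the median of all genes moved by 0.38 and 0.19.

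In gene structure, exon length had a median of 1428 bases, against 1488 in genes with a control mean of at least 1, and 41 members (21.7%) had 1 exon, against 20.2%. They lay on 19 of 36 scaffolds, and scaffold NW_017253361.1 held 35, of its 1972 genes. Members held 2.12% of the places next to a member, and made up 1.27% of all genes. There were 4 pairs of neighbouring members, 3 of them with the same direction, and no longer run.

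The pair with the larger mean change was CC84DRAFT_1211097 (scaffold NW_017253360.1, positions 844961 to 847107, minus strand) and CC84DRAFT_1158983 (scaffold NW_017253360.1, positions 847339 to 848404, plus strand), which lie head to head on opposite strands. CC84DRAFT_1211097 held 6.66, 1.54 and 2.89 scaled CPM at day 0, 0.928 at the lowest, 6.61 at the median and 52.6 at the highest in day 1 controls and 19.3, 11.3, 30.1, 6.99 and 13.4 in day 6 controls. CC84DRAFT_1158983 held 43.5, 53.9 and 60.02 at day 0 and 226, 92.6, 226, 68.2 and 89.3 in day 6 controls, and its day 1 controls held 24.9 at the lowest, 91.2 at the median and 627 at the highest. The difference of L between days 6 and 0 was 1.41 for CC84DRAFT_1158983, and 0.55 without day 0 replicate 1 and day 6 replicates 1 and 3. In both genes replicate 1 was the highest day 1 control and replicates 1 and 3 the highest at day 6. With selenite CC84DRAFT_1158983 held 270.2, 218, 268, 213 and 234 at day 1, above 5 of the 6 controls, and 169, 88.5, 137 and 152 at day 6. Without control day 1 replicate 1 the selenite difference of L at day 1 was 1.55 for CC84DRAFT_1158983 and 1.29 for CC84DRAFT_1211097. The other pairs, named after their values were seen, were CC84DRAFT_1258655 with CC84DRAFT_1186497, CC84DRAFT_1122346 with CC84DRAFT_1122344, and the lower CC84DRAFT_1159385 with the higher CC84DRAFT_1159386. CC84DRAFT_1122346 held 9.3, 6.82 and 11.3 at day 0, 7.15 at the lowest, 10.4 at the median and 11.6 at the highest in day 1 controls and 23.3, 22.8, 15.3, 15.6 and 19.7 in day 6 controls, with day 6 above all the other controls. Its neighbour CC84DRAFT_1122344 held 2.21, 2.54 and 5.05 at day 0, 2.12 at the lowest, 3.03 at the median and 4.75 at the highest in day 1 controls and 6.27, 8.22, 3.97, 9.02 and 10.7 in day 6 controls. Both rose from day 1 to day 6, by 0.95 (SE 0.21, adjusted p = 0.000579) and 1.15 (SE 0.35, adjusted p = 0.0103), and their annotated ends overlap on opposite strands. Use of strand in the counting was not given in the sources used here, so reads in that overlap may be shared.

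At the limits of the rule, CC84DRAFT_1166051 (age difference of L 1.00) and CC84DRAFT_1168522 (1.00) were just inside, and CC84DRAFT_1140643 (-0.997) and CC84DRAFT_1166318 (0.99) just outside. For the day 1 selenite difference, CC84DRAFT_558529 (0.60) and CC84DRAFT_1091851 (-0.60) were inside, and CC84DRAFT_1193315 (0.61) and CC84DRAFT_1197368 (-0.61) outside. For the day 6 selenite difference, CC84DRAFT_1255589 (0.59) and CC84DRAFT_1171708 (0.59) were inside, and CC84DRAFT_1077854 (-0.60) and CC84DRAFT_1162186 (-0.61) outside. For the control mean in scaled CPM, CC84DRAFT_36978 (1.01) and CC84DRAFT_1186497 (1.07) were inside, and CC84DRAFT_1119268 (0.964) and CC84DRAFT_1175650 (0.939) outside.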

How the data were processed

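The authors deposited a table of CPM for 15164 genes in 23 libraries; its tools, per the submitters' processing notes, were edgeR 3.36.0 in R 4.1.0, Subread 2.0.6 with featureCounts, STAR 2.7.1a and Trimmomatic 0.39, with a build of the genome not given in the sources used here. Each CPM column of the deposited table is a whole multiple of 1 read within 1e-06 reads for 100% of values, which gave the library totals; 1 read is a small step on every level printed, and 3 reads correspond to 0.0918 to 0.129 CPM. The authors' deposited comparison tables give log2 fold changes, an F score and p-values with their adjusted values per gene, and the authors' deposited time-course table gives p-values, an R-squared score and a cluster number, per the file headers. Exon positions, strands and lengths are those of the deposited count table, whose counts were not used here.

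Each library was divided by its median ratio to the geometric means of the 9705 genes above 0 in all libraries, the scale of the rule, so that levels and tests share it. limma 3.58.1 (R 4.3.3) with a mean-variance trend fitted 5 group means to log2(scaled CPM + 0.5) over 13676 genes that passed edgeR 4.0.16's low-count filter on recovered reads, two-sided, with Benjamini-Hochberg adjustment over all of them; no block was used. Fold changes on this scale understate the change of low genes. edgeR's quasi-likelihood test, limma-voom and DESeq2 1.42.0 on the recovered reads, other scalings, filters and pseudocounts, and fits without single libraries were the alternatives. The members and lists were chosen with earlier results of these data known. Named genes, in each direction, were the 6 with the largest age difference among those whose day 0 and day 6 controls did not overlap, the 3 with the highest control mean per kilobase, the 3 with the smallest adjusted p for control day 1 against days 0 and 6, and the longest run of neighbours. Lists by protein pattern or product name, and protein or promoter sequences, were not used here. Figures were drawn with matplotlib 3.10.9.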

Additional observations from a re-analysis of the deposited data

Results flagged for a closer look

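In groups of 4 to 10 libraries, 14 of 108 looked at held a library far from the others. A rate of about 1 of 20 would hold for independent, normally distributed values. These were unlogged values of members measured in the same libraries, so nothing is read from the excess. In the day 1 controls, replicate 1 was the library far above the other 5 for 9 named members, all higher at day 6. Its scaled CPM was 106 for CC84DRAFT_456474, 401 for CC84DRAFT_1160510, 306 for CC84DRAFT_1169914, 52.6 for CC84DRAFT_1211097, 633 for CC84DRAFT_1104949 and 29.01 for CC84DRAFT_1214347. It was 564 for CC84DRAFT_1050439, 2009 for CC84DRAFT_1162968 and 627 for CC84DRAFT_1158983. The same library held 1.01% of its reads in the members higher at day 6, against 0.309 to 0.462% in the other 5.

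Selenite day 6 replicate 1 was far above its group for CC84DRAFT_1050439 (446 scaled CPM) and CC84DRAFT_1264775 (81.1). Selenite day 6 replicate 3 stood above the others for CC84DRAFT_1195287 (334). Control day 1 replicate 5 did so for CC84DRAFT_19031 (73.1).

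The selenite difference of CC84DRAFT_1211865 was not the same on both days. By limma with Benjamini-Hochberg adjustment it was -0.49 at day 1 and 0.24 at day 6 on the log2 scale, a difference of 0.73 (SE 0.23, adjusted p = 0.0137). Both selenite contrasts had chosen this gene, so the values are a description.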

How the results depend on the processing

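The number of members, 189, was 96 with a selenite limit of 0.4, 337 with a limit of 0.8 and 55 with an age change of 1.5. It ran from 171 to 263 when single libraries were left out. The 263, without control day 0 replicate 1, held 172 of the 189. Without control day 6 replicates 1 and 3 together the rule picked 183 genes, but only 105 of the 189 were among them. With control day 0 replicate 1 also left out it picked 255, with 123 of the 189. TMM factors gave 172 members, 135 of them shared with the 189. Leaving out 1 library gave 2892 to 4009 genes called for control day 1 against day 0 (61 to 90 members), 5091 to 6350 for day 6 against day 1 (65 to 96 members), and 5092 to 6112 for day 1 against days 0 and 6 (57 to 73 members). For day 6 against day 1, leaving out control day 6 replicates 1 and 3 together gave 3901 genes and 48 members; leaving out control day 0 replicate 1 as well, a setting chosen after seeing the data, gave 3981 and 50; both have fewer samples. Library size alone gave 110 members for day 1 against days 0 and 6, where the cause was not tested. The replicate numbers showed no clear pairing of the libraries, though a pairing is not thereby excluded. In deviations from group means, 39 same-number pairs correlated between -0.21 and 0.40, 6 of them over 0.1. The 170 pairs of unlike number correlated between -0.37 and 0.48, 21 of them over 0.1. With the replicate block the 3 contrasts called 3632, 5712 and 5330 genes, and 95, 75 and 66 members. Among named genes, control day 6 against day 0 was followed for 19 and control day 1 against days 0 and 6 for 6. None of these changes turned its sign in the alternatives. The genes had been chosen by these same contrasts, which favours that outcome. Selenite differences of single genes were not followed there. At day 1 those of CC84DRAFT_1104949 and CC84DRAFT_1162968 did turn sign without control day 1 replicate 1. Counts were compared by size alone, and some balances of direction did turn. For day 6 against day 1 the members called went from 45 higher and 37 lower to 38 and 41 with TMM factors. For selenite at day 6 they went from 5 higher and 4 lower to 1 and 8 with library size alone. For single named genes, the log2 change from control day 0 to day 6 in the fit, not the difference of L, was followed over the alternatives. Of 684 combinations of gene and alternative, 676 moved by less than 1 SD between replicates and 8 by more. Leaving out a day 1 control or a selenite library cannot move this value, so part of the 676 was fixed in advance. Single members at low levels are limited by depth, since a control mean of 1 scaled CPM rests on few reads per library.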
